A study of Mus musculus with 12 samples.

Results

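Antisense long non-coding RNAs (lncRNAs) that are spliced were described in mouse liver, in the RNA of whole tissue and of isolated nuclei, and in both sexes. The lncRNA catalogue of the study held 15558 transcripts in the coordinates of mouse build mm9. A transcript was included where it was classed as antisense, had 2 exons or more, carried no RefSeq name and lay on an autosome. This gave 622 spliced antisense lncRNAs. The livers came from male and female CD-1 mice, an outbred strain, that were 7 to 11 weeks old, intact and untreated. Each of the 4 groups (male nuclear, female nuclear, male total and female total RNA) had 3 libraries, and each library was made from a pool of RNA of 12 to 17 mice after partial removal of ribosomal RNA. Nuclei had been purified through sucrose by ultracentrifugation. All nuclear libraries and 2 of the 3 female total libraries were sequenced on lane 4, and the 3 male total libraries and the third female total library on lane 3, so that lane overlaps with sex in total RNA and with fraction, and these cannot be told apart. In nuclear RNA both sexes were on the same lane. The labels do not say whether nuclear and total pools share mice. In such bulk tissue fewer cells of a type and less RNA per cell cannot be told apart.

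An antisense lncRNA is read from the strand opposite to a gene, so that both transcripts share a stretch of DNA. Some such transcripts stay in the nucleus and act on chromatin or on the gene they overlap, and others are by-products of transcription near promoters. In mouse liver many genes of steroid and drug metabolism are transcribed at different rates in males and females, because the pituitary releases growth hormone in pulses in males and almost continuously in females. Cytochromes P450 of the families Cyp2 and Cyp3a, which oxidise steroids and drugs, and the major urinary proteins, which carry pheromones, are the classical examples.

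Many of the transcripts with the largest sex differences lay opposite P450 genes. The promoters of the genes on the other strand are given here for the Cyp3a cluster, because their likeness bears on which copy a read can be assigned to, for Cyp2a4 as a gene outside that cluster, and for Prox1, whose transcripts below went different ways. They are RefSeq sequences of build GRCm38.p6, from 250 bases before to 50 bases after the start of the gene, written 5′ to 3′ on the strand of the gene. Capitals mark TATAAA, the TATA box motif, and CAAAGTCCA, a match to the site of the liver factor HNF4A, on either strand; no other motif is marked, and the motifs do not overlap each other.
Cyp3a44, chr5:145805825-145806124, minus strand: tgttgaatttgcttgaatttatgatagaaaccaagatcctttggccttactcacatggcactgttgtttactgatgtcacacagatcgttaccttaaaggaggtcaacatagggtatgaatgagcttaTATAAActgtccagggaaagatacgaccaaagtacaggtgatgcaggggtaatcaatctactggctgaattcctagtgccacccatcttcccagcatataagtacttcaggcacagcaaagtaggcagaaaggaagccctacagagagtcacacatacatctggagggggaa
Cyp3a41a, chr5:145720087-145720386, minus strand: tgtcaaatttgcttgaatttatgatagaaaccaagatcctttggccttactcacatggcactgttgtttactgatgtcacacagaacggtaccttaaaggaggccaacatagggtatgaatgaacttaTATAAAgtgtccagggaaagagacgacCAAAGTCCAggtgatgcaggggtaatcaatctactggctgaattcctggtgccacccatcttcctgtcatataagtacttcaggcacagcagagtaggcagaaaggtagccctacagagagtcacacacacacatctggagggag
Cyp3a41b, chr5:145584681-145584980, minus strand: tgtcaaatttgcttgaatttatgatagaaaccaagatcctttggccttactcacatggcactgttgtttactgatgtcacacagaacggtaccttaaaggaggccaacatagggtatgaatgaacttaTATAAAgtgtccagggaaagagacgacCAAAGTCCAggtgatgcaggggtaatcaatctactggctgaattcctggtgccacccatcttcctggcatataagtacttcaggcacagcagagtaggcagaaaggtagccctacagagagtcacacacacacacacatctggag
Cyp3a16, chr5:145469674-145469973, minus strand: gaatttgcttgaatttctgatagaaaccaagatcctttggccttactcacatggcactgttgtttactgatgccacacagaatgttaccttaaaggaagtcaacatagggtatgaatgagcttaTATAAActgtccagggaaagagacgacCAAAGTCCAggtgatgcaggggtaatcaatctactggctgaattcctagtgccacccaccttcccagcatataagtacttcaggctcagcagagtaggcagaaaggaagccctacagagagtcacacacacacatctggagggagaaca
Cyp2a4, chr7:26306942-26307241, plus strand: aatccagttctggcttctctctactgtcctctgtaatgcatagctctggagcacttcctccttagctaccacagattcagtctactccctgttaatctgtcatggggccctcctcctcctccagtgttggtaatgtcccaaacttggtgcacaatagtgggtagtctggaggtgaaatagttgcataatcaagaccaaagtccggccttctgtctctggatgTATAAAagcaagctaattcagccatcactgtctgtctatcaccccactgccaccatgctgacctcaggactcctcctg
Prox1, 1 of 2 starts listed, chr1:190170778-190171077, minus strand: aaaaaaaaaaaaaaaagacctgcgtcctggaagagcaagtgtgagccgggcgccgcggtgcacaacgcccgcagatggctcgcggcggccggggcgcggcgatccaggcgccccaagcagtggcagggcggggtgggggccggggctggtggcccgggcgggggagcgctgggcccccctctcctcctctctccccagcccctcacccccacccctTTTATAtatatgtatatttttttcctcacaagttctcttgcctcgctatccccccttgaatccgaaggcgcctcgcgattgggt

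The motifs were chosen after these windows had been seen, and the 4 Cyp3a windows are near copies of each other, so that the counts are a description only. TATAAA was found in each of these 6 windows, beside 13.6% of all 32851 mouse promoters of the same length. CAAAGTCCA was found in the windows of Cyp3a41a, Cyp3a41b and Cyp3a16, beside 0.475% of all promoters, and these letters were not in the windows of Cyp3a44, Cyp2a4 and Prox1. Relative to the start of the gene, the first base of TATAAA lay at −122 in Cyp3a44, Cyp3a41a and Cyp3a41b, at −126 in Cyp3a16 and at −28 in Cyp2a4. In Prox1 the match was on the other strand, between −34 and −29. Whether any of these matches works as a TATA box was not tested. The windows of Cyp3a41a and Cyp3a41b matched at 292 of 300 positions, those of Cyp3a44 and Cyp3a41a at 277 of 300, and those of Cyp3a41a and Cyp3a16, shifted by 4 bases, at 280 of 296. Reads of such near-identical copies can be split between them, so the values of single lncRNAs opposite Cyp3a, Mup, Ces1, Serpina1, Serpina3 and Slc22 genes are uncertain as to the copy. The sequences of the lncRNAs themselves were not analysed here.

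Of the 622 spliced antisense lncRNAs, 407 had 2 exons, 123 had 3 and 92 had 4 or more, up to 12. Their span had a median of 9.02 kb, between 527 bp and 480 kb. The length over which reads had been counted could be recovered from the deposited means, as described in the processing notes, and had a median of 3.86 kb, or 62.1% of the span. In 133 of them it was at most 10% of the span, as in a transcript of short exons, and in 195 at least 90%. The 622 lay in 554 loci, and 86 of them overlapped another of the class on the same strand. At 6 loci 5 or more lay together, 56 in all, among them 15 opposite the carboxylesterases Ces1b and Ces1c, 13 opposite the Serpina1 genes of alpha-1 antitrypsin and 9 opposite the Cyp3a genes. Such neighbours share sequence and are not independent cases.

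A RefSeq gene on the other strand overlapped 615 of the 622, and these were 624 genes. Of the 522 with a single such gene, 215 lay inside it, 144 overlapped it at the 5′ ends, 127 at the 3′ ends, and 36 spanned it. The library kit keeps the strand of the RNA, but no source used here gives whether reads were counted by strand. Reads of a gene and of its antisense partner therefore cannot be told apart with certainty in what follows.

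Spliced antisense lncRNAs were transcripts of low level, and they took a larger share of the reads in nuclear than in total RNA. The median over all lncRNAs was also higher in nuclear RNA. The library sizes recovered from the deposited means lay between 11.1 and 12.4 M reads (M, mega) in the nuclear groups and between 6.43 and 13.8 M in the total groups. Over the 12 libraries a spliced antisense lncRNA had a median of 84 reads. Of the 622, 529 had 10 reads or more, and 20 had none. The authors' mean levels had a median of 0.296 RPKM (reads per kilobase of transcript, scaled to library size) in male and 0.289 RPKM in female nuclear RNA, and of 0.032 RPKM in male and 0.0339 RPKM in female total RNA.

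A level of 1 RPKM or more in either sex was reached by 138 spliced antisense lncRNAs in nuclear RNA, or 22.2%. The share was 9.54% among 985 single-exon antisense lncRNAs and 7.41% among 1511 spliced intergenic lncRNAs, both also autosomal and without RefSeq name. In total RNA 18 reached that level. The catalogue was assembled from reads, so that level and inclusion are not independent, and the classes were not compared by a test. Where the gene on the other strand reached 1 FPKM (fragments per kilobase, likewise scaled), the lncRNA had a median of 9.25% of the level of that gene over 374 pairs, each at its highest group, with the 2 tables scaled separately. The lncRNA exceeded the gene in 8 of them.

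**Figure D1:**
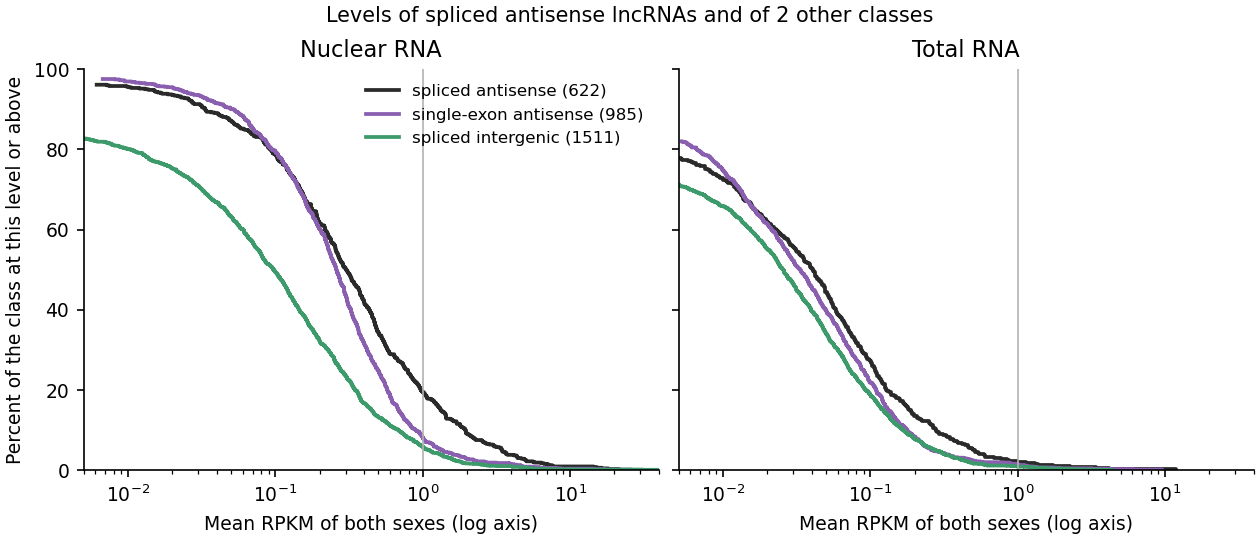
Share of each class (percent, vertical axis) at or above a mean level of both sexes (RPKM, log axis) in nuclear RNA (left) and total RNA (right); the grey line marks 1 RPKM. In nuclear RNA the curve of the 622 spliced antisense lncRNAs lies above the 2 others at 1 RPKM, and in total RNA few transcripts of any class reach it.

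The 8 highest mean levels over the 4 groups belonged mostly to transcripts opposite genes of secreted liver proteins. They lay opposite the Serpina1 genes, the fibrinogen gene Fga, the murinoglobulins Mug1 and Mug2 (protease inhibitors of plasma), Serpina3k to Serpina3n, the apolipoprotein gene Apoa5, the urinary protein genes Mup20 and Mup3, the ubiquitin ligase gene Nedd4l, and Rsrp1. ncRNA_as_chr12_10850, opposite Serpina1a, Serpina1b and Serpina1d, had 16.6 RPKM in male and 12.3 RPKM in female nuclear RNA, and 15.4 RPKM in male and 8.54 RPKM in female total RNA (authors' means). ncRNA_as_chr3_2485, opposite Fga, had 16.4 RPKM in male and 20.04 RPKM in female nuclear RNA, and 4.95 RPKM in male and 2.11 RPKM in female total RNA (authors' means). Its reads were spread widely within the sexes, with 229, 43 and 364 reads in the male total libraries and 169, 187 and 38 in the female total libraries. Not all of the 8 levels rest on many reads. Those of ncRNA_as_chr12_10887, opposite Serpina3 genes, and ncRNA_as_chr6_5590, opposite Mug1 and Mug2, come from fewer reads over a short counted length. Their reads are given below, and the ranking is one of RPKM and not of reads.

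For single transcripts, reads per library are listed from the largest to the smallest library of a group. These were 12.4, 12.2 and 11.1 M reads in male nuclear RNA, 12.4, 12.0 and 11.7 M in female nuclear RNA, 13.8, 11.8 and 6.43 M in male total RNA, and 13.5, 11.3 and 10.2 M in female total RNA. The means do not tell which library belongs to which pool. The hepatocyte gene Alb had 189 FPKM in male and 238 FPKM in female nuclear RNA, and 2711 FPKM in male and 5481 FPKM in female total RNA. Hepatocyte markers did not share 1 direction. Like Alb, Cps1 and Ass1 were higher in females in both fractions. Apoa1 and Serpina1a were higher in males in both, Apoa1 with 48.4 against 35.4 FPKM in nuclear and 451 against 422 FPKM in total RNA. Ttr and Cyp2e1 were higher in males in nuclear RNA and in females in total RNA. These are directions of mean FPKM, and the authors' ratios are scaled differently in total RNA. Fga had 225 FPKM in male and 257 FPKM in female total RNA, but a log2 ratio of 0.25 in the authors' deposited table. The direction of modest differences in total RNA, such as those of Ttr and Cyp2e1, is therefore not read. The bile duct markers Krt19, Krt7 and Epcam, 3 of 4, were at or below 0.121 FPKM in all groups. The fourth, Spp1, had 0.528 FPKM in male and 0.408 FPKM in female nuclear RNA, and 2.31 FPKM in male and 1.86 FPKM in female total RNA (authors' means). All markers of Kupffer, sinusoidal endothelial and stellate cells had the higher mean FPKM in females in total RNA. Clec4f, for example, had 3.40 FPKM in male and 6.51 FPKM in female total RNA. In nuclear RNA the markers of each of these cell types went both ways. The erythroid gene Alas2 was higher in males in both fractions, and Hbb-b1 and Hba-a1 were slightly higher in females in total RNA. Whether scaling or cell content underlies this was not tested. Libraries stood apart in total RNA. LncRNAs took 0.875% of the reads in the female library of 11.3 M and 0.215% in that of 10.2 M, against 0.356% to 0.402% in the other 4. The male total library of 6.43 M held many reads for transcripts opposite abundant liver genes, which is given where it touches a result.

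The first question was which spliced antisense lncRNAs differed between the sexes. In nuclear RNA the authors' deposited table called 43 of the 599 that were detected (7.18%) at a false discovery rate (FDR) under 0.05 by edgeR, where it called 4.89% of all 13120 lncRNAs detected. Of these, 19 were higher in males, against a background of 2.31% of all, and 24 were higher in females, against 2.58%. The 43 lay in 34 loci. With 1 transcript per locus, the one with most reads, 31 were called over all 554 loci, detected or not. The balance turned, with 18 higher in males and 13 higher in females. Neighbours at a locus thus add to the share of 7.18%. The background was not counted per locus, so the excess over 4.89% is not read as a result about the class. In total RNA the authors' deposited table called 11 of 508 (2.17%), against 1.35% of all lncRNAs, with 6 higher in males (0.654% of all) and 5 higher in females (0.7% of all). Unadjusted p was under 0.05 in 103 and 63 of them.

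Male and female libraries did not overlap, in scaled RPKM, for 17.0% of the spliced antisense lncRNAs in nuclear RNA, where this held for 16.6% of all lncRNAs; 44 were male-higher (8.17% of all) and 58 female-higher (8.44% of all). In total RNA it held for 11.4%, against 8.5% of all, 32 male-higher (3.56% of all) and 26 female-higher (4.94% of all). In nuclear RNA this share lies near the background and is not a result about the class. A limma fit on the recovered values, chosen after the data had been seen, called 22 of 373 in nuclear RNA (5.90%), 3 male-higher and 19 female-higher, against 8.79% of the 5463 lncRNAs tested (3.81% and 4.98%). It called 3 of 373 in total RNA, none of them higher in males, against 1.26% (0.348% and 0.915%), with unadjusted p under 0.05 for 24. Of the 40 authors' nuclear calls that entered this fit, 21 were called by both.

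Many of the largest differences were those of transcripts opposite P450 genes, with few or no reads in male livers. Of the 9 transcripts opposite the Cyp3a cluster, 7 were called in nuclear RNA and 2 in total RNA, all higher in females. ncRNA_as_chr5_4745 (mm9 chr5:146525947-146612187, plus strand, 2 exons), opposite Cyp3a41a and Cyp3a44, had 2, 8 and 2 reads in the male nuclear libraries, against 194, 230 and 219 in the female ones. In total RNA it had 0, 2 and 1 reads in male libraries, against 84, 143 and 42 in female ones. The sexes were far apart in both fractions. The authors' deposited table gave log2 ratios, male over female, of −5.58 in nuclear RNA (FDR 2.56e-81) and −5.81 in total RNA (FDR 1.67e-33). By limma, on the log2(RPKM + 0.1) scale, which understates the change of low transcripts, the differences were −4.32 ± 0.24 (SE, adjusted p = 4.5e-07) and −3.27 ± 0.24 (adjusted p = 1.9e-05).

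ncRNA_as_chr5_4731, which starts within Cyp3a16 and spans Cyp3a41a and Cyp3a41b, had 0, 2 and 0 reads in male nuclear libraries, against 99, 147 and 113 in female ones. It had no read in male total libraries, against 19, 32 and 19 in female ones. Every female library stood above every male library in both fractions, and both FDR values of the authors' deposited table passed the threshold (1.06e-54 in nuclear and 2.28e-09 in total RNA). The other 5 called transcripts of the locus had few reads. ncRNA_as_chr5_4742 and ncRNA_as_chr5_4743 had none in male nuclear libraries, against 23, 20 and 13, and 23, 24 and 17, in the female ones. Where all libraries of a sex are at 0, the fitted log2 ratio depends on a prior count and is not given here. The genes on the other strand, female-specific in mouse liver, differed the same way in the authors' deposited table, with log2 ratios in nuclear RNA of −7.90 for Cyp3a44, −6.45 for Cyp3a41a, −8.01 for Cyp3a41b and −6.74 for Cyp3a16.

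ncRNA_as_chr7_6007 (mm9 chr7:27089230-27099814, minus strand, 5 exons) overlaps the 5′ end of Cyp2a4, a steroid hydroxylase. It had 2, 2 and 0 reads in male nuclear libraries, against 109, 127 and 108 in female ones, and no read in male total libraries, against 23, 34 and 10 in female ones. The sexes did not overlap in either fraction, and limma gave −3.44 ± 0.21 in nuclear RNA (SE, adjusted p = 7.43e-07) and −1.53 ± 0.21 in total RNA (adjusted p = 0.00255). Opposite Cyp2c40 and Cyp2c69, ncRNA_as_chr19_15010 had 1, 4 and 1 reads in male nuclear libraries, against 45, 94 and 49 in female ones. Its neighbour ncRNA_as_chr19_15007 had 70, 43 and 26, against 215, 567 and 271. Opposite Cyp2b10, Cyp2b13 and Cyp2b9, ncRNA_as_chr7_5999 had 9, 10 and 2 reads, against 51, 50 and 37, and the FDR in the authors' deposited table was 5.51e-13. Each of these transcripts was therefore higher in females in all 3 libraries of nuclear RNA.

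**Figure D2:**
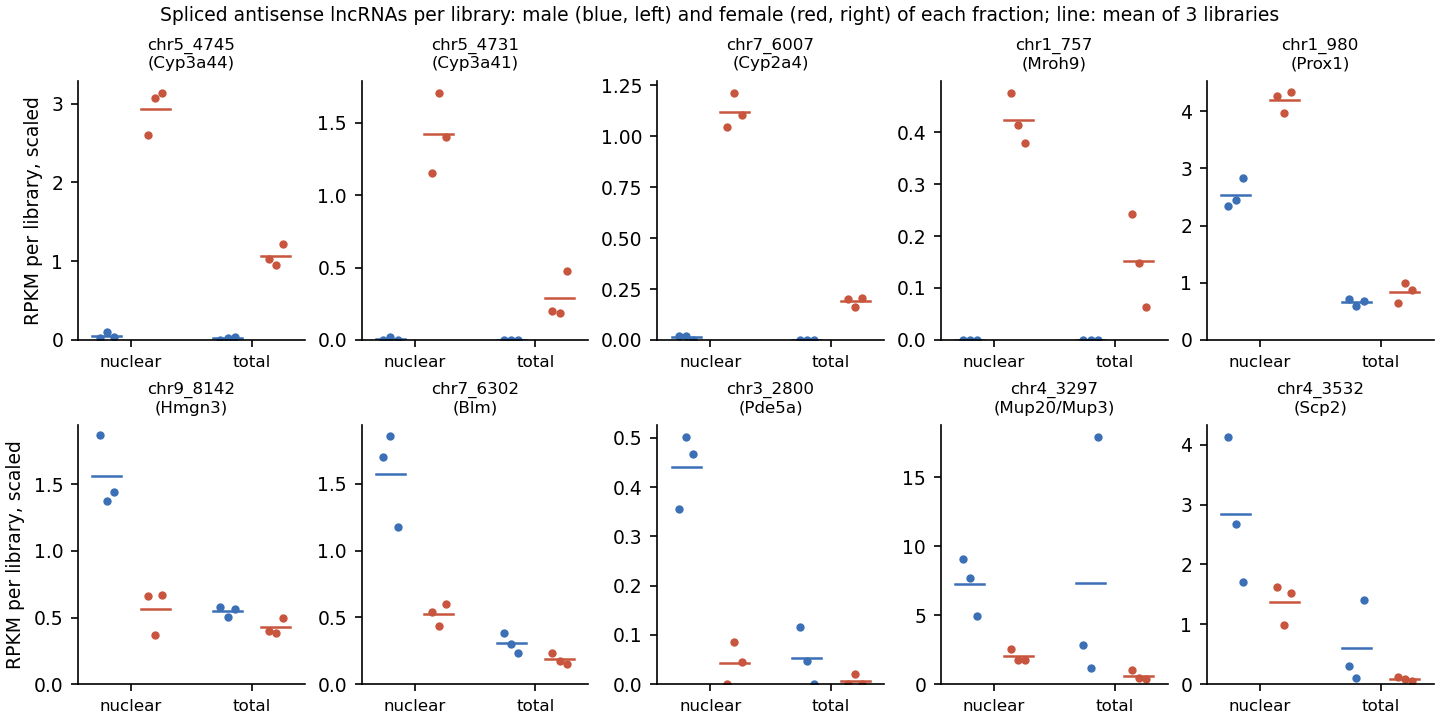
RPKM per library, divided by the scale of each library (vertical axes, linear and different in each panel), for 10 spliced antisense lncRNAs in nuclear and total RNA; points are the 3 libraries of a group, lines their means, male in blue left of female in red. The transcripts opposite Cyp3a, Cyp2a4 and Mroh9 are at or near 0 in males; the one opposite Mup20 and Mup3 has 1 male total library far above the other two.

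Beyond the P450 genes, the transcripts higher in females were opposite genes of varied function. ncRNA_as_chr1_757, inside Mroh9, had no read in any male library, against 16, 14 and 12 reads in female nuclear and 9, 10 and 1 in female total libraries. The authors' deposited table gave an FDR of 5.94e-10 in nuclear and 0.018 in total RNA. ncRNA_as_chr11_9449 lies inside Igfbp1, which encodes a binding protein of insulin-like growth factors, and had 32, 18 and 13 reads in male nuclear libraries, against 67, 51 and 65 in female ones. The groups did not overlap, and the log2 ratio in the authors' deposited table was −1.41 (FDR 3.01e-05), beside −1.56 for Igfbp1 itself. Transcripts that overlap the 5′ ends of Sall1, a zinc finger transcription factor, and of B4galnt1, an enzyme of ganglioside synthesis, were also higher in females: the first had 78, 76 and 57 reads in male, against 140, 161 and 144 in female nuclear libraries, and the second 35, 49 and 30, against 78, 82 and 84.

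Transcripts higher in males mostly had smaller log2 ratios. ncRNA_as_chr9_8142 (mm9 chr9:82994249-83023485, plus strand), which has 8 exons, the most among those at 1 RPKM or more, lies opposite Hmgn3, a nucleosome-binding protein. It had 393, 308 and 259 reads in male nuclear libraries, against 145, 82 and 138 in female ones. The groups did not overlap, the authors' deposited table gave log2 1.52 (FDR 1.48e-09), and limma gave 1.34 ± 0.24 (SE, adjusted p = 0.00433). ncRNA_as_chr7_6302, opposite the DNA helicase gene Blm, had 276, 320 and 163 reads, against 92, 74 and 95, and limma gave 1.41 ± 0.25 (SE, adjusted p = 0.00373). ncRNA_as_chr3_2800, opposite the phosphodiesterase gene Pde5a, had 8, 12 and 9 reads, against 0, 2 and 1. These 3 were the only male-higher nuclear calls by limma. The genes Blm and Pde5a were not called in either fraction in the authors' deposited table, and Hmgn3 was called in nuclear RNA only.

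The male-higher transcripts opposite Mup and Scp2 genes had uneven libraries. ncRNA_as_chr4_3297 (mm9 chr4:61534877-61748241, plus strand) spans Mup20 and overlaps Mup3. In nuclear RNA it had 9.09, 7.69 and 4.94 RPKM, scaled per library, in male libraries, against 2.58, 1.79 and 1.75 RPKM in female ones, and the authors' deposited table gave log2 1.89 (FDR 1.78e-11). In total RNA it had 142, 50 and 329 reads in male libraries, the last in the smallest library, against 51, 40 and 8 in female ones (log2 3.72, FDR 0.000246 in the authors' deposited table). Every male library stood above every female library, but limma called neither fraction (adjusted p = 0.19 in nuclear and 0.149 in total RNA). ncRNA_as_chr4_3532, inside Scp2, which encodes a sterol carrier protein of peroxisomes, had 66, 19 and 112 reads in male total libraries, against 26, 32 and 5 in female ones, and here the scaled levels overlapped. Its nuclear reads were 780, 539 and 277 in males, against 322, 196 and 281 in females. The part of the male total library of 6.43 M in these calls was not tested.

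ncRNA_as_chr8_7528, which overlaps the last 89 bp of Mlycd, the malonyl-CoA decarboxylase of fatty acid metabolism, was called in total RNA but not in nuclear RNA. It had 556, 223 and 135 reads in male total libraries, against 127, 373 and 67 in female ones, and 1200, 980 and 910 in male nuclear, against 966, 1150 and 687 in female nuclear libraries. In the authors' deposited table log2 was 1.32 (FDR 0.000103) in total and 0.28 (FDR 0.8) in nuclear RNA. The female total library with 373 reads was the one in which lncRNAs took the largest share of reads, and only after scaling did the groups not overlap. The difference between the fractions did not pass in limma for it.

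Prox1, a homeobox transcription factor of hepatocytes and lymphatic endothelium, had a spliced antisense lncRNA at each end. ncRNA_as_chr1_980 (mm9 chr1:191994436-192008085, plus strand) overlaps the first 124 bp of Prox1, next to the promoter printed above, and had 380, 420 and 391 reads in male nuclear libraries, against 720, 672 and 688 in female ones. These groups were well separated, and limma gave −0.70 ± 0.19 (SE, adjusted p = 0.0448). ncRNA_as_chr1_978 (mm9 chr1:191868809-191945757, 6 exons) overlaps the last 101 bp and had 272, 238 and 171 reads in male, against 407, 533 and 346 in female nuclear libraries. In total RNA it had 80, 72 and 32 reads in male, against 37, 98 and 26 in female libraries. It was the single transcript called in opposite directions in the authors' deposited table, with log2 −0.79 in nuclear (FDR 0.00167) and 0.78 in total RNA (FDR 0.0341). The difference between the fractions was −1.24 ± 0.31 in limma (SE) and did not pass, with adjusted p = 0.116, between 0.0578 and 0.267 over the other settings. In total RNA the groups separated only after scaling. Prox1 itself had log2 −0.79 in nuclear and −0.23 in total RNA in the authors' deposited table, the first called and the second not.

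**Figure D3:**
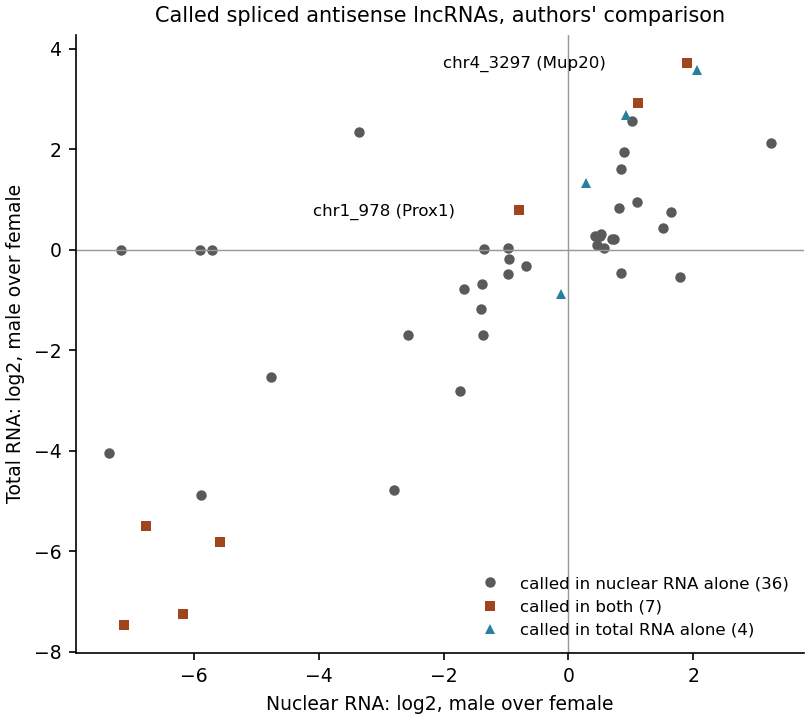
Log2 ratio, male over female, in nuclear RNA (horizontal) and total RNA (vertical) for the 47 spliced antisense lncRNAs called in either fraction, as deposited by the authors; transcripts without a read in total RNA are drawn at 0 on the vertical axis. Of the 7 called in both fractions, 6 have the same direction and ncRNA_as_chr1_978 the opposite.

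The test of the sex difference between the fractions passed in limma for 6 of 373 (1.61%), none with the higher and all with the lower male over female ratio in nuclear RNA, where it passed for 0.641% of all lncRNAs (0.183% and 0.458%). Nothing is read from these 6, since 3 of them had no read in total RNA of either sex and the others had fewer than in nuclear RNA, so that the pseudocount shrinks the difference in total RNA.

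Next, the direction of each called lncRNA was set beside that of the gene on the other strand. In nuclear RNA 29 of the 43 called lncRNAs overlapped a gene that the authors' deposited table also called, where it called 5.8% of all RefSeq genes detected. In 28 of the 29 all called genes had the direction of the lncRNA, in none the opposite, and in 1 both occurred. In total RNA, where the table called 4.46% of genes, it was 5 of 5. The same held for single-exon antisense lncRNAs, with 18 of 18 in nuclear RNA. Counting 1 transcript per locus, 16 had the direction of the gene and none the opposite.

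The exception, ncRNA_as_chr19_14772, runs 480 kb across a cluster of organic anion transporter genes. It had 1686, 1026 and 506 reads in male nuclear libraries, against 644, 578 and 502 in female ones, and the scaled levels of the sexes overlapped. Of the genes it overlaps, the authors' deposited table gave log2 2.79 for Slc22a28 and 0.73 for Slc22a30, both higher in males, and −4.90 for Slc22a27, higher in females. Slc22a30 was the most abundant of them, with 35.5 FPKM in male and 23.1 FPKM in female nuclear RNA (authors' means).

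Of 121 detected lncRNAs opposite a called gene, 29 were called in nuclear RNA (23.97%), and of 471 opposite a gene that was not called, 13 (2.76%). Among single-exon antisense lncRNAs the shares were 27.3% of 66 and 2.77% of 866. In total RNA 5 of 77 and 6 of 425 spliced antisense lncRNAs were called. Beside ncRNA_as_chr19_14772 and Slc22a27, an lncRNA with the reverse direction of a called gene was seen among those not called. ncRNA_as_chr4_3292, opposite Mup2, Mup15 and Mup16, had 8, 14 and 18 reads in male nuclear libraries, against 26, 23 and 35 in female ones, with log2 −0.94 in the authors' deposited table (FDR 0.111), while Mup16 had 1.52 there (FDR 0.0018); it was picked for this contrast after its values had been seen.

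**Figure D4:**
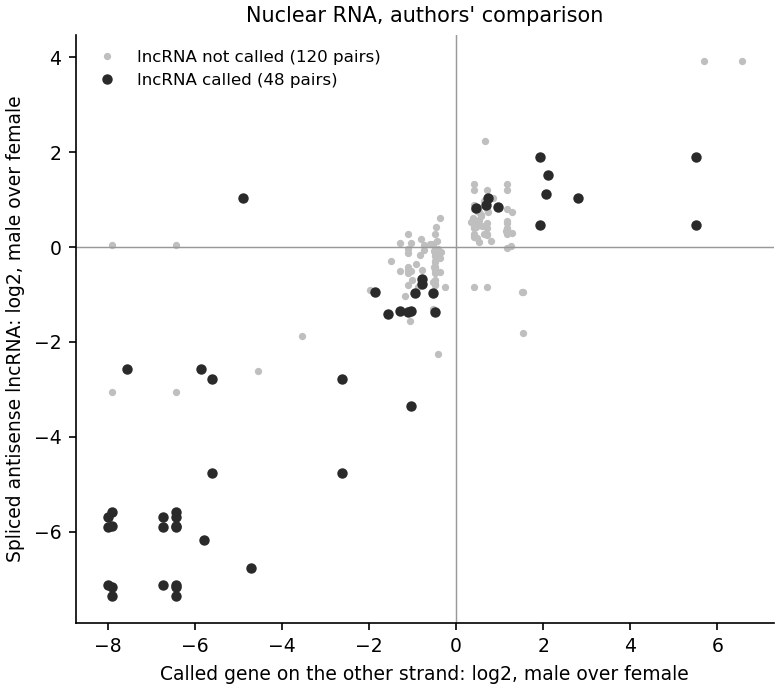
Log2 ratio, male over female, in nuclear RNA of the gene on the other strand (horizontal) and of the spliced antisense lncRNA (vertical), for every pair whose gene was called, as deposited by the authors. The 48 pairs with a called lncRNA lie in the lower left and upper right of the plot, apart from the pair of ncRNA_as_chr19_14772 and Slc22a27.

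By function of the gene on the other strand, 58 of 368 genes on 10 lists had a spliced antisense lncRNA, and 74 such lncRNAs were involved. The lists and the examples were chosen with results of these data known. Of 93 genes of P450 and conjugating enzymes, the authors' deposited table called 24 as male-higher and 23 as female-higher in nuclear RNA. Of the 21 lncRNAs opposite 20 of them, it called none higher in males and 11 higher in females, 7 of them at the Cyp3a locus. Their median log2 was −2.79, beside 0.10 over all lncRNAs. Of 44 genes of known female bias, 36 passed in nuclear RNA in that direction. Of their 18 lncRNAs, 1 was called higher in males, ncRNA_as_chr19_14772, and 11 were higher in females. Of 31 genes known as male-biased, 27 were called higher in males, but of their 8 lncRNAs only 2 higher in males, both opposite Mup20 and Mup3, and 1 higher in females.

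Of 41 liver transcription factors, 6 had 8 lncRNAs, with 1 higher in males, opposite Cebpa, and 2 higher in females, both opposite Prox1. Opposite 14 of 53 plasma protein genes lay 27 lncRNAs, none of them higher in males and 1 higher in females, while 9 of the genes were called higher in males and 15 higher in females. Opposite Igf1, Igfals and Igfbp1, of 20 genes of growth hormone signalling, lay 3 lncRNAs, of which the one opposite Igfbp1 was higher in females. The 5 lncRNAs opposite lipid and bile acid genes, the 2 opposite urea cycle and gluconeogenesis genes and the 1 opposite the clock gene Nr1d2 were not called in either fraction, and none lay opposite the 29 genes listed for a known antisense transcript. The class leaves out transcripts with a RefSeq name or on a sex chromosome, so nothing is read from this absence.

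The second comparison was between nuclear and total RNA. At 1 RPKM or more in a group stood 139 spliced antisense lncRNAs, of which 121 reached that level in nuclear RNA alone, so that the choice largely fixes their direction. Of the 18 that reached it in total RNA, 16 were higher in nuclear RNA in the mean over both sexes. For the 139 the log2 ratio, nuclear over total with a pseudocount of 1 RPKM, had a median of 1.18, against 0.94 over all 1237 lncRNAs at that level. Relative to the median of all it was 0.23, beside 0.05 for single-exon antisense and −0.10 for spliced intergenic lncRNAs, with a range of −1.17 to 3.07. With a pseudocount of 0.1 RPKM these medians were 0.80, 0.24 and −0.03, the first over 3 times as large. By exon number, again with a pseudocount of 1 RPKM, the median relative to all was 0.30 with 2 exons, 0.23 with 3 and −0.10 with 4 or more. Fraction and lane overlap, and total RNA contains the nuclear RNA, so that these are ratios of shares of reads and not of molecules per cell.

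By limma, relative to the shift of 1.48 of the median lncRNA on the log2(RPKM + 0.1) scale, 108 of 373 spliced antisense lncRNAs were higher in nuclear RNA (29.0%) and 18 were lower (4.83%), against 9.61% and 2.87% of the 5463 lncRNAs tested. Transcripts of the same locus contributed together. Without the 6 loci that hold 5 or more, 75 of 328 were higher and 16 lower. With 2 exons 82 of 248 were higher and 12 lower, and with 4 exons or more 6 of 55 were higher and 3 lower. An lncRNA entered this fit at 0.25 RPKM or more in any group, a level that the class reached more often in nuclear RNA. Entry and direction are therefore not independent, and these counts are a description and not a result about the class.

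A high nuclear excess was seen opposite plasma protein genes. Of the 26 tested opposite plasma protein genes, 16 were higher in nuclear RNA and none lower, with a median log2 of 1.95, against 0.34 over all 373. Opposite the Serpina1 genes 9 of 12 were higher, and opposite the carboxylesterase genes Ces1b and Ces1c 12 of 13. The Ces1 genes were not on a list and were picked after the values had been seen. Opposite P450 and conjugating enzymes 8 of 15 were higher and 1 lower, and opposite liver transcription factors 2 of 8 were higher. Transcripts at the Serpina1 and Ces1 loci were counted over a median of 345 bp and 369 bp, short exons within long spans. On such lengths few nuclear reads are enough to enter the fit while total RNA has few or none. The excess at these loci is therefore not independent of the filter.

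ncRNA_as_chr12_10887, which spans Serpina3m with 2 short exons, had 24, 20 and 7 reads in male and 37, 25 and 17 in female nuclear libraries and no read in any total library. It was higher in nuclear RNA by 5.62 ± 0.26 (SE, limma adjusted p = 1.94e-07), a value that depends on the pseudocount. ncRNA_as_chr6_5590, opposite Mug1 and Mug2, had 83, 45 and 21 reads in male and 34, 40 and 23 in female nuclear libraries, against 1, 0 and 2 in male and 1, 0 and 0 in female total libraries. ncRNA_as_chr4_3720, inside Rsrp1, is longer (1797 bp counted) and had 474, 422 and 184 reads in male and 411, 301 and 336 in female nuclear libraries, against 9, 5 and 15 in male and 17, 16 and 4 in female total libraries. All nuclear libraries of these 3 transcripts stood above all total libraries. ncRNA_as_chr8_7305, opposite Ces1b and Ces1c, was higher by 3.96 ± 0.42 (SE, limma adjusted p = 0.000135). The transcripts of this paragraph were named for a high nuclear over total ratio. Their p-values on that ratio describe them and are no separate test.

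Transcripts lower in nuclei relative to the shift of the median lncRNA were opposite unrelated genes. Many of the 18 still had a higher mean RPKM in nuclear than in total RNA. Among these was ncRNA_as_chr5_4745, opposite Cyp3a41a and Cyp3a44, with 1.54 RPKM in nuclear and 0.657 RPKM in total RNA (mean of both sexes). The transcripts described next had the lower mean in nuclear RNA. ncRNA_as_chr6_5605, at the 5′ end of the complement-like protease gene C1rl, had few reads, 5, 4 and 1 in male and 3, 4 and 1 in female nuclear libraries, against 8, 4 and 2 in male and 2, 6 and 2 in female total libraries, and was lower by −1.97 ± 0.35 on the log2 scale (SE, limma adjusted p = 0.00361). ncRNA_as_chr11_10149, opposite the transporter gene Abca9, had 43, 32 and 34 reads in male and 36, 35 and 18 in female nuclear libraries, against 71, 51 and 18 in male and 47, 77 and 15 in female total libraries (limma adjusted p = 6.99e-05). ncRNA_as_chr7_6162, opposite the ferritin light chain gene Ftl1, had 4.1 RPKM in male and 3.03 RPKM in female nuclear RNA, against 4.74 RPKM in male and 3.62 RPKM in female total RNA (authors' means), and did not pass (limma adjusted p = 0.0597). This transcript and ncRNA_as_chr6_5605 were likewise named for a low nuclear over total ratio.

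**Figure D5:**
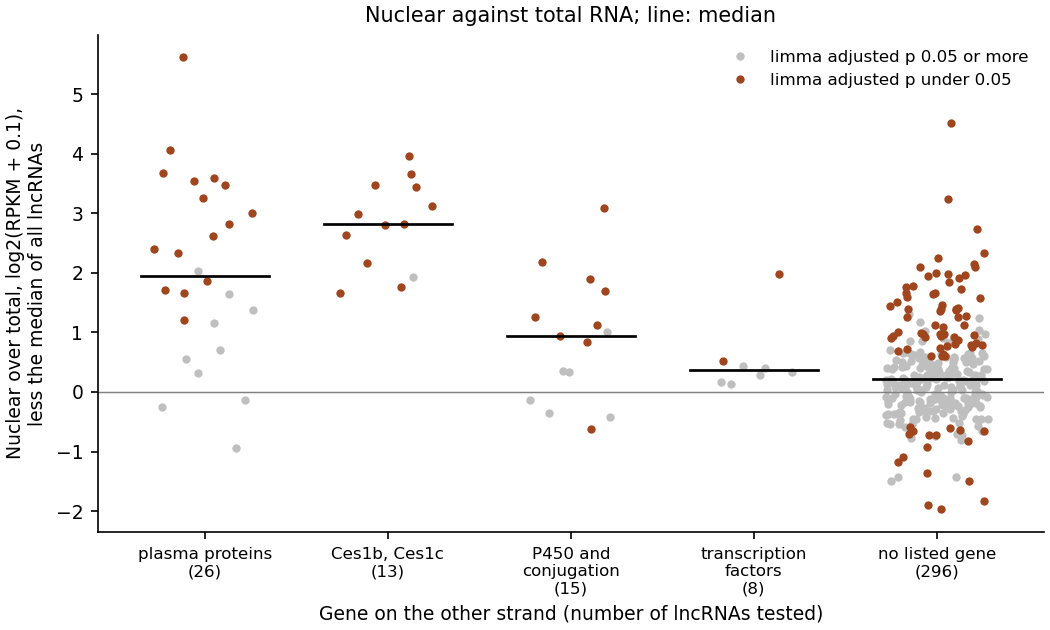
Log2 difference, nuclear over total, on the log2(RPKM + 0.1) scale less the median of all lncRNAs (vertical axis), for spliced antisense lncRNAs grouped by the gene on the other strand (3 lists, the Ces1 genes, and genes of no list); points are transcripts, a transcript opposite genes of several lists appears in each of them, and lines are medians. Those opposite plasma protein genes have a median of 1.95, and those of no list crowd just above 0.

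The genes on the other strand were mostly higher in total RNA. Opposite 128 lncRNAs at 1 RPKM or more, where the gene reached 1 FPKM in a group, 31 of the genes were higher in nuclear than in total RNA. The lncRNAs are not counted beside them, since most had reached their level in nuclear RNA alone. Neighbouring lncRNAs can lie opposite the same gene, and the share over all RefSeq genes was not counted. The count of 31 is therefore a description and not a result about these genes. Serpina3k had 48.4 FPKM in male and 48.4 FPKM in female nuclear RNA, against 416 FPKM in male and 337 FPKM in female total RNA (authors' means), opposite the transcript with no read in total RNA.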

How the data were processed

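RNA of whole liver and of liver nuclei was measured in 12 libraries, 3 pools per group. The members, gene lists and limma settings were chosen with earlier results of these data known. Per the submitters' processing notes, reads were handled with TopHat2, featureCounts and edgeR on mm9; no source used here gives their versions or whether counting used strand. The deposited tables hold, per the file headers, mean RPKM per group for lncRNAs and mean FPKM per group for RefSeq genes, with the authors' log2 ratio (lncRNAs) or linear ratio (genes) of male over female and the authors' p-value and adjusted p-value. Because the deposited values are means, the edgeR test planned for counts could not be run, and the authors' calls at an adjusted p under 0.05 are the main ones. In 3 entries of the lncRNA table the deposited values stood 1 column out of place and were put back.

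A mean RPKM of 3 libraries is a sum of whole reads over whole library sizes and a whole counted length. Single-exon lncRNAs, whose length is their span, gave the library sizes (6.43 to 13.8 M reads). For spliced lncRNAs the shortest length that gave whole reads in all 4 groups was taken, with a tolerance near rounding error. Of 1500 single-exon lncRNAs searched as if their length were unknown, 1487 gave the right length, and of those with 10 reads or more 932 of 932. Reads were recovered for all 602 spliced antisense lncRNAs that had any. The search was also tested on simulated data. Libraries carry no pool number. Levels were divided by a scale per library, the median over lncRNAs with 5 reads or more in every library of the fraction. limma 3.58.1 (R 4.3.3, trend and robust empirical Bayes) was run on log2(RPKM + 0.1) of lncRNAs at 0.25 RPKM or more in a group, with the nuclear libraries centred on the median lncRNA, adjusted over all lncRNAs tested. P-values measure the spread between pools. Reads cover counting error only: 3 reads in a group of 3 nuclear libraries correspond to 0.0842 RPKM in males and 0.0832 RPKM in females on a transcript of 1 kb.

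Genes on the other strand were matched by mm9 position; their strand came from RefSeq and GENCODE symbols. Promoters are from RefSeq (GRCm38.p6), matched by symbol for 6 of 6 genes; the motifs were chosen after the windows had been seen. Transcripts were named by a rule on size of the sex difference (6 per fraction and direction at 0.25 RPKM or more), level, nuclear over total ratio, calls of the opposite gene and exon number. Alternatives covered thresholds, filters, pseudocounts, scaling, overlap, 1 transcript per locus and single libraries left out.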

Additional observations from a re-analysis of the deposited data

Results flagged for a closer look

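For 6 spliced antisense lncRNAs the test of the sex difference between nuclear and total RNA passed in the limma fit (adjusted p under 0.05 for the difference itself, 1.61% of 373 tested, against 0.641% of all lncRNAs). In all 6 the male over female log2 difference was more negative in nuclear RNA. It was more negative by −5.23 for ncRNA_as_chr5_4729, −4.83 for ncRNA_as_chr5_4742, −3.65 for ncRNA_as_chr5_4727 and −2.42 for ncRNA_as_chr5_4733, all opposite Cyp3a genes, by −3.37 for ncRNA_as_chr19_15010 opposite Cyp2c40 and Cyp2c69, and by −1.91 for ncRNA_as_chr7_6007 opposite Cyp2a4. ncRNA_as_chr5_4727, ncRNA_as_chr5_4729 and ncRNA_as_chr5_4742 had no read in total RNA of either sex, so that no sex difference was detectable there at this depth. On the log2(RPKM + 0.1) scale a low level in total RNA gives a small difference. ncRNA_as_chr7_6007 had no read in male total libraries, against 23, 34 and 10 in female ones, and ncRNA_as_chr5_4733 had none, against 3, 9 and 1, so that both were also female-higher there and nothing is read from the direction of the 6 values.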

How the results depend on the processing

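The 43 nuclear sex calls became 27 with an absolute log2 over 1, 25 among transcripts with 3 exons or more, 22 in limma, 20 in limma at 1 RPKM or more, 22 at 0.02 RPKM or more, and 17 to 24 in limma with 1 library left out (18, 19 and 21 among them). The 11 calls in total RNA became 7 at an adjusted p under 0.01, 3 at 1 RPKM or more, 6 with 3 exons or more, 3 in limma, 2 with a pseudocount of 0.5 RPKM, 5 at 1 RPKM or more and 3 at 0.02 RPKM or more in limma, and 3 to 6 with 1 library left out (4 among them). The 28 nuclear calls with the direction of the gene became 8 where most of the lncRNA overlaps the gene and 16 with 1 transcript per locus, and the 5 in total RNA became 2 and 3. The 126 transcripts that differed between nuclear and total RNA became 67 at 1 RPKM or more and 304 at 0.02 RPKM or more. They became 187 with a pseudocount of 0.5 RPKM, and lay between 101 and 140 with 1 library left out. The 6 whose sex difference differed between the fractions became 12 with a pseudocount of 0.5 RPKM, and 6 to 8 with 1 library left out. The median nuclear over total log2 ratio of 0.23 became 0.80 with a pseudocount of 0.1 RPKM and 1.18 without centring, and was 0.16 to 0.27 with 1 library left out. The cause of these shifts was not tested. The male to female balance of the calls did turn: in nuclear RNA, 19 to 24 as reported became 18 to 13 with 1 transcript per locus and 13 to 12 with 3 exons or more, and in total RNA 6 to 5 became 0 to 3 in limma. Other settings moved the nuclear balance further towards females. It was 9 to 23 at an adjusted p under 0.01, 8 to 19 with an absolute log2 over 1 and 3 to 19 in limma. The limma settings, and counting 1 transcript per locus, were chosen after seeing the data. No paired analysis was possible because the recovered libraries carry no pool number; DESeq2 was not run, since the tables hold means. Of the transcripts, 93 had under 10 reads in all, too few to show a moderate difference.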
